A study of Mus musculus with 7 samples.

Results

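Growth factors of the FGF, EGF, PDGF and IGF families, their receptor tyrosine kinases, and the feedback and target genes of the ERK pathway were examined in High RFP cells sorted from embryonic mouse neocortex. The list held 50 genes, taken by gene symbol from the 38124 genes of the count table, whatever their level. It comprised 7 FGF ligands with the FGF binding protein *Fgfbp3*, 4 FGF receptors, 10 ERK feedback and target genes, 6 ligands and 4 receptors of the EGF family, 4 PDGF ligands and *Pdgfrb*, 8 genes of the IGF and insulin family, and the receptors *Kit*, *Met*, *Ntrk2* and *Ntrk3* with the KIT ligand gene *Kitl*. The question was whether these genes differed between cells that received a Sox9 expression construct and cells that received its control.

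All 7 libraries came from embryos of *Tis21*-CreERT2 mice whose mothers were given tamoxifen by oral gavage. In these mice tamoxifen activates Cre in the apical radial glia that produce basal progenitors (BPs), and in those BPs, so that other apical progenitors do not switch on the construct. The neocortex was electroporated in utero at E13.5 either with a control construct, in which Cre removes a floxed GFP cassette so that nuclear RFP is made (3 libraries, replicates 1, 2 and 4), or with a construct that in the same way yields Sox9 together with nuclear RFP (4 libraries, replicates 1 to 4). At E15.5, 48 h after electroporation, dorsolateral cortex was dissociated and the cells with the strongest RFP fluorescence were sorted, pooled from several embryos according to the methods, whereas the figure legends count 1 neocortex for each library, so that it is not certain whether a replicate is an embryo or a pool. RNA was reverse transcribed from its poly(A) tail and amplified by PCR, and single-end reads without molecular identifiers were counted per gene.

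Growth factors of these families bind receptor tyrosine kinases at the cell surface, which pass the signal through RAS to the kinases RAF, MEK and ERK. ERK activity switches on its own inhibitors, among them the Sprouty and Spred proteins and the phosphatases Dusp4 and Dusp6, as well as the Ets factors Etv1, Etv4 and Etv5, so that transcripts of these genes are widely read as targets of the pathway. In the embryonic cortex FGF receptors maintain radial glia, and EGF and PDGF receptors mark progenitors that go on to make glia.

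Some values concern all results. The libraries labelled Sox9 tended to be shallower, with total counts from 4429704 to 10520214, against 10465562 to 12907778 in the controls. The deepest of them, replicate 2, lay just above control replicate 4. *Sox9* mRNA, in which construct and endogenous transcripts are not separated, was at 34.6, 89.2 and 68.0 CPM (counts per 1000000 counts of a library, after TMM scaling) in the controls and at 50.8, 41.1, 31.0 and 37.1 CPM in the libraries labelled Sox9, and thus was not higher in the latter (log2 fold change -0.68, standard error 0.25, adjusted p = 0.0493 with edgeR's quasi-likelihood test and Benjamini-Hochberg adjustment). By qPCR on cells sorted in the same way, the paper reported the highest relative *Sox9* mRNA in High RFP cells that received the Sox9 construct. It reported almost none in the control populations, a difference that these counts do not show. The groups are therefore named by their labels, and every direction below is that of the libraries labelled Sox9 against the controls. In this contrast 1862 of 16522 genes tested (11.3%) were called higher and 567 (3.43%) lower, a gene being called at an adjusted p under 0.01. Genes of low level were called higher far more often than others: among genes with an average log2 CPM under 1, 20.6% were called higher and 0.0916% lower, from 1 to 3 the shares were 22.8% and 1.02%, whereas above an average log2 CPM of 5 the shares were 0.726% and 6.99%.

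Markers of several cell types also moved with the groups. Their counts stand beside 11.3% of all genes called higher and 3.43% called lower. At an unadjusted p under 0.05 with edgeR, 26.8% of all genes lay above 0 and 17.3% below. Of the radial glia markers 6 of 11 tested were called lower, with a summed level of 919 to 1603 CPM in the controls and 504 to 657 CPM in the libraries labelled Sox9, and of the intermediate progenitor markers 3 of 10 were called lower (876 to 951 against 687 to 884 CPM). Of the oligodendrocyte precursor markers 5 of 6 were called higher (1.15 to 1.93 against 11.1 to 31.5 CPM) in the TMM-scaled edgeR test, among them *Pdgfra*, *Olig1* and *Olig2*. Of the other markers of this list, *Nkx2-2* had at most 1 count in any library, *C1ql1* had 2 to 5 counts in the controls and 1 to 2 in the libraries labelled Sox9, and *Sox10* had 1 to 3 and 0 to 6 counts. Endothelial markers gave 2 higher of 9 (6.88 to 17.5 against 25.4 to 56.6 CPM). All 9 lay above 0, with 7 at an unadjusted p under 0.05. *Cldn5* of the same list was not tested, with 1, 7 and 1 counts in the controls and 0, 0, 15 and 0 in the libraries labelled Sox9. Mural and meningeal markers gave 2 higher of 9 (11.2 to 13.4 against 20.8 to 41.6 CPM), with 7 above 0 at an unadjusted p under 0.05. Microglia markers gave 1 of 10 (12.1 to 43.0 against 18.9 to 79.5 CPM), with 3 above 0 at that level, near the shares of all genes. Choroid plexus markers gave 4 of 6 (11.6 to 17.5 against 41.7 to 143 CPM), with 5 above 0 at that level. The choroid plexus sum was mostly *Enpp2* (means of 7.02 and 88.2 CPM). The other called markers were *Ttr* (means of 0.24 and 4.70 CPM), *Folr1* (0.254 and 2.59 CPM) and *Kcne2* (0.0898 and 1.35 CPM). Of the 6 tested, 5 lay above 0, while *Sostdc1* was at means of 5.12 and 2.93 CPM. Interneuron markers gave 1 higher of 4 (*Npy*; sums of 6.50 to 6.61 against 9.50 to 34.1 CPM), erythroid markers 1 of 6 (2.10 to 24.7 against 14.7 to 94.8 CPM), and astrocyte markers 2 higher and 1 lower of 7 (79.7 to 129 against 59.6 to 103 CPM). Neuronal markers had by far the largest sum (15310 to 18880 against 13980 to 16370 CPM). Of 12 neuronal markers 0 were called by edgeR, with 0 above and 4 below at an unadjusted p under 0.05 and 1 called lower by DESeq2. Chemoreceptor genes, which cortical progenitors are not known to use, gave 16 higher and 0 lower of 105 tested by edgeR, with 83 above and 0 below at an unadjusted p under 0.05 (beside 26.8% and 17.3% of all genes tested) and 21 and 0 called by DESeq2, but 0 in either direction with cyclic loess normalization and limma-trend. Their summed level was 120 to 163 CPM in the controls and 366 to 512 CPM in the libraries labelled Sox9. With cyclic loess normalization and limma-trend, 3 radial glia markers were called lower, and 1 oligodendrocyte precursor and 1 choroid plexus marker higher. The part of these shifts in the results below was not tested, and in sorted pools fewer cells of a type and less RNA per cell cannot be told apart.

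Of the 50 genes, 46 had enough counts to be tested. Of these, 6 were called higher (13%, beside 11.3% of all genes tested), namely *Tgfa*, *Fgf2*, *Nrg2*, *Erbb3*, *Igf1* and *Met*, and 4 were called lower (8.7%, beside 3.43%), namely *Fgfr1*, *Spry2*, *Etv5* and *Igfbp5*. The remaining 36 were not called. Every library labelled Sox9 lay above every control for 9 of the 46 genes (19.6%, beside 22.9% of all genes tested) and below every control for 6 (13%, beside 16.4%). The median log2 fold change was -0.00 for the 46 genes and for all genes tested, which TMM scaling centers. Genes of the list are therefore also set beside genes of like level. In the range of average log2 CPM from 1 to 3, which holds *Nrg2*, *Erbb3*, *Igf1* and *Met*, 4 of 18 genes of the list were called higher, beside 22.8% of all genes, and 2 (*Etv5* and *Igfbp5*) lower, beside 1.02%. *Etv5* and *Igfbp5* lay at the upper edge of that range, at 2.99 and 2.95, and from 3 to 5 the share of all genes called lower was 4.27%. In the range from 1 to 3 the median was 0.96 for the 18 genes of the list and 0.62 for all 4309 genes, and above 5 it was -0.41 for 9 genes of the list and -0.24 for all 5094.

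**Figure D1:**
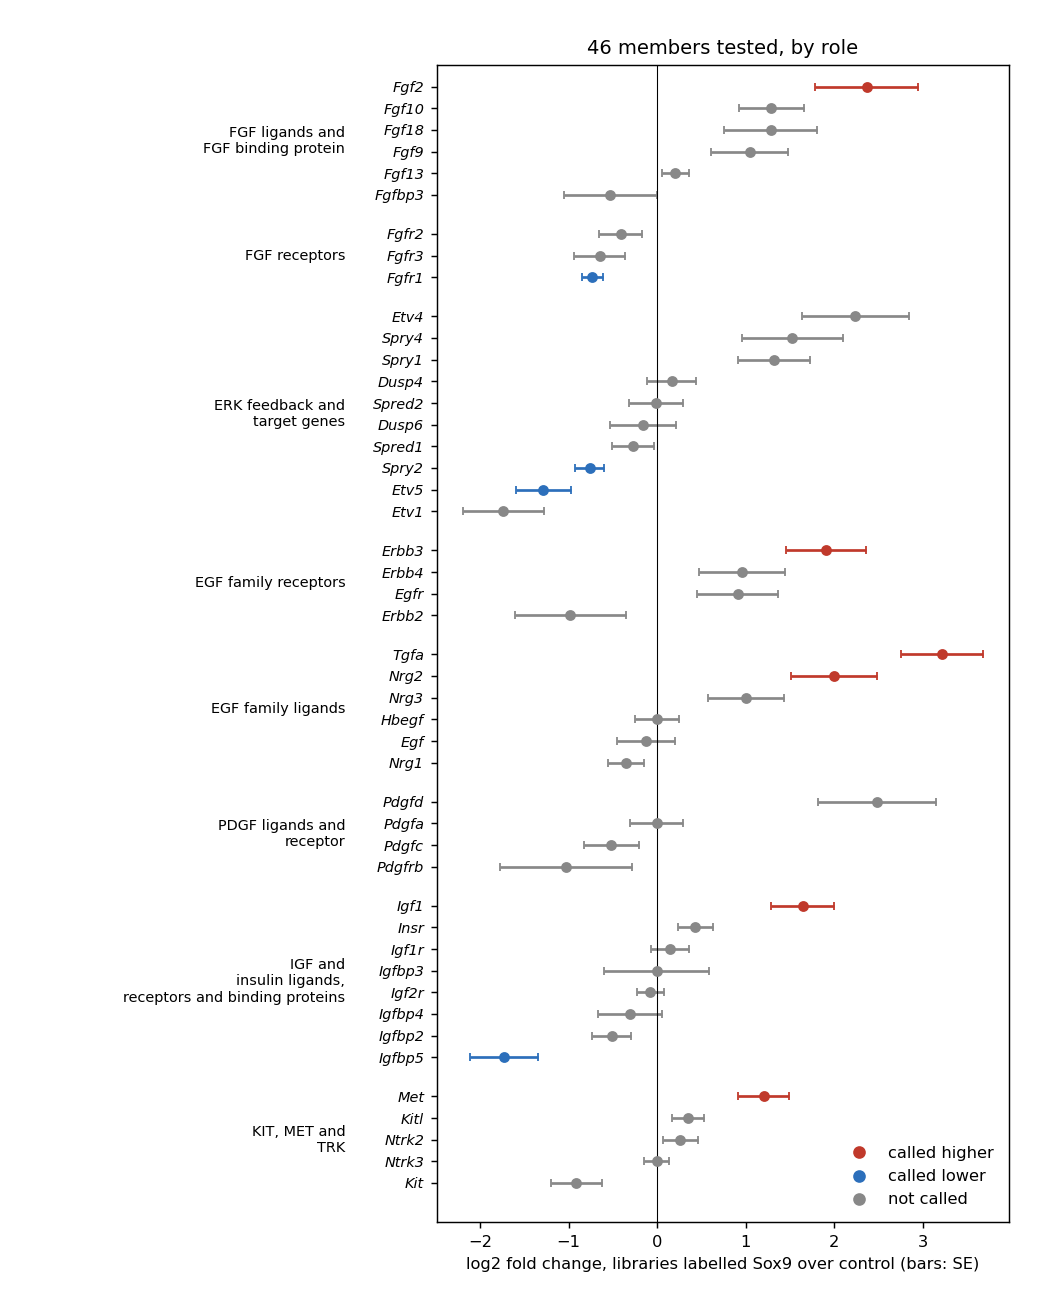
Log2 fold change (libraries labelled Sox9 over control, x axis) of the 46 tested genes, grouped by role, with bars for the standard error and colors for the call at an adjusted p under 0.01. The 6 genes called higher lie in the FGF ligand, EGF family, IGF and KIT, MET and TRK groups, and the 4 called lower are *Fgfr1*, *Spry2*, *Etv5* and *Igfbp5*.

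**Figure D2:**
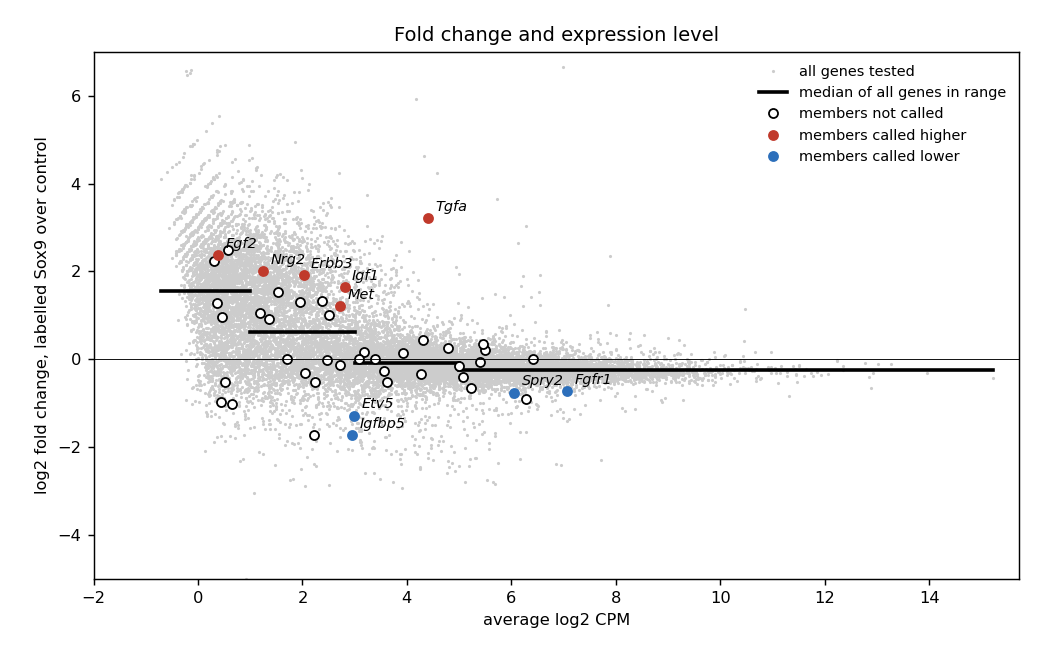
Log2 fold change (y axis) against average log2 CPM over the 7 libraries (x axis) for all 16522 genes tested (grey) and the 46 tested genes of the list (members; circles, filled where called), with the medians of all genes in 4 ranges of level. The grey median fell from 1.55 under an average log2 CPM of 1 to -0.24 above 5, and the genes of the list spread around it.

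Promoter sequence is shown for the strongest rise among the called genes and for the pair of called genes, 1 higher and 1 lower, that hold a letter string bound by HMG-box factors. The windows are the 250 bases before the RefSeq transcription start on the GRCm38.p6 assembly (mm10), written 5′ to 3′ on the gene's strand, for *Tgfa* (chr6:86194972-86195221, forward), *Igf1* (chr10:87860861-87861110, forward) and *Spry2* (chr14:105896820-105897069, reverse). Capitals mark ACAAAG or its reverse complement CTTTGT, a word shared by Sox and Tcf/Lef factors.
Tgfa: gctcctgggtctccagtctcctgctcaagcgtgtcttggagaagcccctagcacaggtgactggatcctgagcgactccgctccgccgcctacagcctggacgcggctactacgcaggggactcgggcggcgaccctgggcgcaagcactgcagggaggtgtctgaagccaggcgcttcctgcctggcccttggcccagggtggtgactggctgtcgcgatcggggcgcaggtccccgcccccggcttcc
Igf1: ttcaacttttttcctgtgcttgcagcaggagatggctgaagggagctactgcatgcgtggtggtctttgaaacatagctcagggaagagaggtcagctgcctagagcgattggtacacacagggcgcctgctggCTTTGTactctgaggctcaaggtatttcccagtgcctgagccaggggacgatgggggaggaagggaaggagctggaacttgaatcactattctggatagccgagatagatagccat
Spry2: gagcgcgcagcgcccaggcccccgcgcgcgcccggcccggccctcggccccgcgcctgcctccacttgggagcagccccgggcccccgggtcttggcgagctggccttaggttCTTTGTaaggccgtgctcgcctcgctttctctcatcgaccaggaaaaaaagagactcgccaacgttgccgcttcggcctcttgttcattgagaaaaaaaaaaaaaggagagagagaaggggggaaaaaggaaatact
The *Igf1* window lies inside the gene as GENCODE places it, whose first start is further upstream, while those of *Tgfa* and *Spry2* lie before the gene. The match began 116 bases before the start in *Igf1* and 137 bases before it in *Spry2*, and the *Tgfa* window held none. RefSeq promoters were found for 36 of the 50 genes, 46 promoters in all, and 6 of these promoters (13%) held the word, namely those of *Fgf13*, *Igf1*, *Pdgfc*, *Pdgfd*, *Spred2* and *Spry2*, while 16.5% of all 32851 promoters of the same length held it. The word AACAAT or its reverse complement ATTGTT, also an HMG-box string, was in 3 of the 46 promoters (6.52%), those of *Dusp6*, *Erbb4* and *Etv1*, and in 9.42% of all promoters. A match of letters is a description of the window and not a binding site.

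Among the EGF family ligands, *Tgfa*, which encodes the EGF receptor ligand TGF-alpha, had the largest rise of the list by fold among the genes called. *Tgfa* (ENSMUSG00000029999, chromosome 6 of mm10, 86195223 to 86275719, forward strand) was at 3.44, 6.26 and 1.22 CPM in control replicates 1, 2 and 4 and at 50.4, 37.6, 13.4 and 36.7 CPM in replicates 1 to 4 labelled Sox9. The lowest library labelled Sox9, replicate 3, was still above the highest control, replicate 2. The means were 3.64 ± 2.52 (SD, n = 3) and 34.5 ± 15.4 CPM (SD, n = 4), a 9.49-fold difference (log2 fold change 3.22, standard error 0.46, adjusted p = 0.000397 with edgeR). The reads behind it were 36, 72 and 12 counts in the controls and 367, 398, 120 and 175 in the libraries labelled Sox9. *Tgfa* was the only gene of the list called higher in all 8 alternative fits and without each library in turn. With a library left out its log2 fold change ran from 2.83 to 3.87. Its average level lay in the range of log2 CPM from 3 to 5, in which 4.4% of all genes were called higher.

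*Nrg2*, which encodes a neuregulin, a ligand of ERBB3 and ERBB4, also rose (ENSMUSG00000060275, chromosome 18, 36017652 to 36197380, reverse strand). Its controls were at 0.765, 0.434 and 1.32 CPM and the libraries labelled Sox9 at 4.53, 2.08, 3.58 and 3.35 CPM, with no overlap (log2 fold change 2.00, standard error 0.49, adjusted p = 0.00765 with edgeR). The other 4 ligands of the family were not called. *Nrg3*, a further neuregulin gene, had 1.83 to 4.97 CPM in the controls and 3.57 to 12.4 CPM in the libraries labelled Sox9 (log2 fold change 1.01, adjusted p = 0.0833 with edgeR). *Nrg1* had means of 21.6 ± 2.41 CPM (SD, n = 3) in the controls and 16.98 ± 3.71 CPM (SD, n = 4) in the libraries labelled Sox9 (log2 fold change -0.35, adjusted p = 0.204 with edgeR), and shares 482 exonic bases with *Gm26578*, a lincRNA gene on the opposite strand. The EGF receptor ligand genes *Hbegf* and *Egf* had log2 fold changes of -0.00 (standard error 0.25) and -0.13 (standard error 0.33). Thus, of 3 genes for EGF receptor ligands on the list, 1 rose and the remaining genes had ranges that overlapped between the groups.

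Of the receptors for these ligands, only *Erbb3* was called by edgeR. *Erbb3* encodes a neuregulin receptor whose own kinase is weak and which signals in pairs with ERBB2 (ENSMUSG00000018166, chromosome 10, 128567523 to 128589652, reverse strand). It was at 1.43, 0.608 and 2.65 CPM in the controls and at 8.52, 4.54, 5.25 and 5.03 CPM in the libraries labelled Sox9, which all lay above the highest control. The means were 1.56 ± 1.02 (SD, n = 3) and 5.84 ± 1.81 CPM (SD, n = 4; log2 fold change 1.91, standard error 0.46, adjusted p = 0.00698 with edgeR). *Erbb3* is also expressed in the oligodendrocyte lineage, whose markers summed to 1.15 to 1.93 CPM in the controls and to 11.1 to 31.5 CPM in the libraries labelled Sox9, and their part in its rise was not tested.

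The receptors of TGF-alpha and of the neuregulins besides *Erbb3* were not called. *Egfr*, the receptor gene for EGF, TGF-alpha and HB-EGF, was at 2.20, 1.74 and 0.915 CPM in the controls and at 4.39, 1.61, 2.91 and 3.56 CPM in the libraries labelled Sox9, where replicate 2 lay within the control range (log2 fold change 0.91, standard error 0.46, adjusted p = 0.138 with edgeR). *Erbb4* was at 0.669, 0.521 and 1.12 CPM and at 1.79, 1.61, 1.45 and 1.05 CPM, with only replicate 4 within the control range (log2 fold change 0.96, standard error 0.49, adjusted p = 0.142). With cyclic loess normalization, tested with limma-trend, the value of *Erbb4* turned to -0.49, and that of *Egfr* was 0.01. *Erbb2* was at 0.574 to 3.05 CPM and 0.275 to 1.26 CPM (log2 fold change -0.98, adjusted p = 0.245 with edgeR), and overlaps the more abundant *Mien1* by 9 exonic bases on the opposite strand. In CPM all 4 receptor genes of this family were thus at or under 8.52 in every library.

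**Figure D3:**
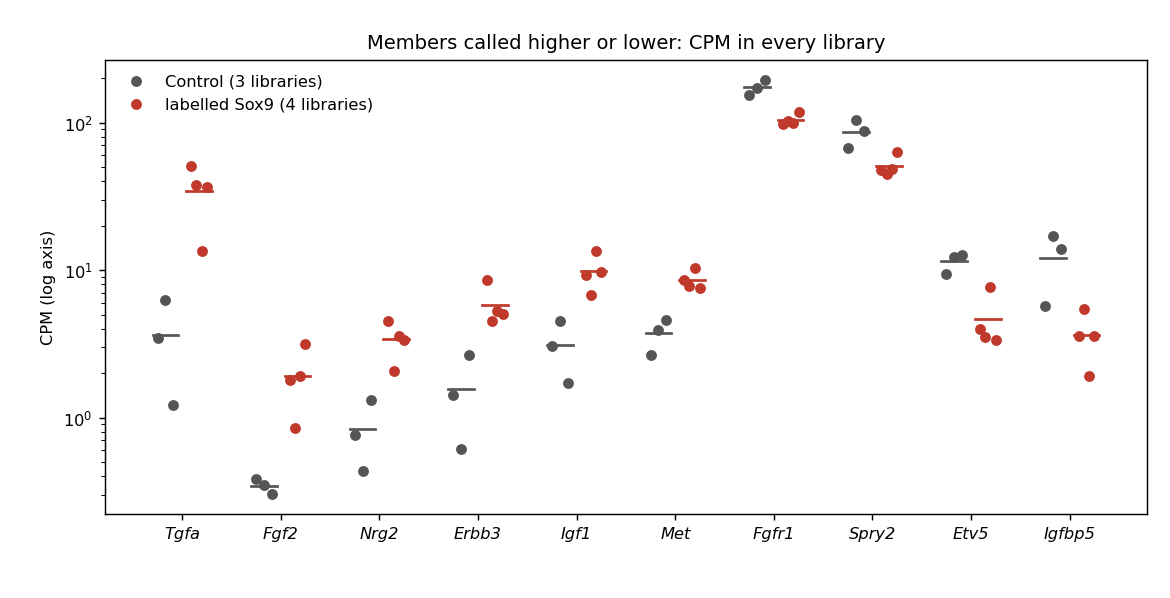
CPM (log axis) of the 10 called genes in each library, with points for the 3 control libraries and the 4 libraries labelled Sox9 and lines for the group means. The groups do not overlap for any of the 10 genes, and *Tgfa* moved from a mean of 3.64 to 34.5 CPM.

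Among the FGF receptors the most abundant member fell. *Fgfr1* (ENSMUSG00000031565, chromosome 8, 25513654 to 25575718, forward strand) was at 154, 172 and 193 CPM in the controls and at 98.2, 102, 98.8 and 118 CPM in the libraries labelled Sox9. The highest library labelled Sox9, replicate 4, lay below the lowest control, and the spread within each group was small (173 ± 19.4 CPM, SD, n = 3, and 104 ± 9.12 CPM, SD, n = 4). This fall, -0.73 on the log2 scale with a standard error of 0.12, had an adjusted p of 0.000918 with edgeR. *Fgfr1* remained called without each library in turn, and in 7 of the 8 alternative fits, the exception being cyclic loess normalization with limma-trend (log2 fold change -0.48, adjusted p = 0.0216). With DESeq2's size factors in edgeR *Fgfr1* was called (adjusted p = 0.000531).

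*Fgfr2* and *Fgfr3*, the FGF receptor genes used with *Fgfr1* by radial glia, were not called. *Fgfr2* was at 30.3, 27.4 and 58.8 CPM in the controls and at 36.0, 29.6, 28.6 and 21.8 CPM in the libraries labelled Sox9, so that control replicate 4 stood above all others (log2 fold change -0.41, standard error 0.24, adjusted p = 0.207 with edgeR). *Fgfr2* shares 314 exonic bases with *Ctbp2* on the same strand, so that its count may hold reads of that gene. Without control replicate 4 the log2 fold change of *Fgfr2* was 0.03, the highest of the 7 fits that leave out a library. *Fgfr3* was at 35.4, 59.4 and 44.5 CPM and at 26.0, 28.6, 15.4 and 50.3 CPM, and replicate 4 labelled Sox9 lay within the control range (log2 fold change -0.65, standard error 0.29, adjusted p = 0.0965 with edgeR). Without a filter on low counts *Fgfr3* was called lower (adjusted p = 0.000583 with edgeR), although its own counts were 138 to 684. That fit gave smaller adjusted p-values for other abundant genes at similar folds. For *Spry2* it gave -0.86 (adjusted p = 2.99e-06), against -0.76 (adjusted p = 0.00419, both with edgeR). Its share of all genes called is not given here, so that its calls lack that comparison. *Fgfr4* had too few control reads for the test, with 1, 4 and 3 counts in the controls and 33, 10, 22 and 4 counts in the libraries labelled Sox9. Relative to library size that is a ratio of 8.69 (95% interval 4.17 to 20.9, exact, counting error only), and a fit without a filter on low counts gave a log2 fold change of 2.97 (adjusted p = 0.000201 with edgeR). Hence the 3 abundant FGF receptor genes had log2 fold changes below 0 while the rarest lay above 0, as genes of low level did in general.

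Of the FGF ligands, *Fgf2* was called higher, at a very low level. *Fgf2* (ENSMUSG00000037225, chromosome 3, 37348346 to 37410108, forward strand) encodes basic FGF, a mitogen for neural progenitors. It was at 0.382, 0.348 and 0.305 CPM in the controls and at 1.79, 0.850, 1.90 and 3.15 CPM in the libraries labelled Sox9, which rested on 4, 4 and 3 counts and on 13, 9, 17 and 15 counts. The groups did not overlap (log2 fold change 2.37, standard error 0.58, adjusted p = 0.00809 with edgeR), but the ratio of summed counts had an interval from 2.56 to 10.5 from counting error alone. *Fgf2* shares 640 exonic bases with *Nudt6* on the opposite strand, and whether strand was used in counting is not given in the sources used here. In the range of level of *Fgf2*, under an average log2 CPM of 1, 20.6% of all genes were called higher. With cyclic loess normalization its log2 fold change was 0.43 (adjusted p = 0.567 with limma-trend).

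The other FGF ligand genes were not called. *Fgf10*, whose product signals through FGFR2, was higher in every library labelled Sox9 (3.97 to 6.48 CPM) than in every control (1.42 to 2.69 CPM; log2 fold change 1.29, standard error 0.37, adjusted p = 0.017 with edgeR). For *Fgf9* (log2 fold change 1.05, standard error 0.44, adjusted p = 0.0794) and *Fgf18* (1.28, standard error 0.52, adjusted p = 0.0723) the groups overlapped. *Fgf18* turned to -0.42 with cyclic loess normalization. *Fgf13*, an intracellular FGF that acts on sodium channels and microtubules rather than on FGF receptors, had the highest level per kb of exonic sequence among the FGF genes of the list, and was at 36.4 to 47.4 CPM in the controls and 41.8 to 55.8 CPM in the libraries labelled Sox9 (log2 fold change 0.21, standard error 0.15). *Fgfbp3*, which releases FGFs from matrix, had a log2 fold change of -0.53 (standard error 0.53).

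A pair of FGF ligand genes fell under the filter on low counts. *Fgf1* had 1 count in each control and 3, 4, 10 and 12 counts in the libraries labelled Sox9, a ratio of 9.74 relative to library size (95% interval 3.02 to 49.9, exact, counting error only). *Fgf15*, an FGF of the early brain, had 1, 14 and 0 counts in the controls and 0, 1, 0 and 0 in the libraries labelled Sox9, so that almost all of its reads came from control replicate 2. It shares 761 exonic bases with *Gm26793* on the opposite strand.

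The ERK feedback and target genes called as reported were all lower, while 4 of the group had log2 fold changes above 0. Of 10 genes tested, 0 were called higher by edgeR and 2 were called lower (beside 11.3% and 3.43% of all genes), and the median log2 fold change was -0.09. At an unadjusted p under 0.05, 3 of them lay above 0 and 3 below (beside 26.8% and 17.3% of all genes tested), and DESeq2 called 0 higher and 3 lower (beside 8.49% and 5.44%). The summed level of the 10 genes was 168 to 171 CPM in the controls and 102 to 139 CPM in the libraries labelled Sox9, of which *Spry2* and *Dusp6* made up most.

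*Spry2*, which encodes a Sprouty inhibitor of RAS and ERK signalling, fell (ENSMUSG00000022114, chromosome 14, 105891947 to 105896819, reverse strand). The controls were at 66.8, 105 and 87.8 CPM and the libraries labelled Sox9 at 47.9, 45.2, 48.3 and 63.1 CPM. Replicate 4 labelled Sox9 came within a few CPM of control replicate 1, but the groups did not overlap (86.5 ± 19.0 CPM, SD, n = 3, and 51.1 ± 8.12 CPM, SD, n = 4; log2 fold change -0.76, standard error 0.16, adjusted p = 0.00419 with edgeR). *Etv5*, an Ets factor gene and a target of FGF signalling, fell further. *Etv5* (ENSMUSG00000013089, chromosome 16, 22381309 to 22439719, reverse strand) was at 9.46, 12.2 and 12.7 CPM in the controls and at 3.98, 3.50, 7.71 and 3.35 CPM in the libraries labelled Sox9. Replicate 3 stood above the other 3 of its group and still below every control (log2 fold change -1.29, standard error 0.31, adjusted p = 0.00712 with edgeR). *Etv5* was also called lower with cyclic loess normalization (log2 fold change -1.54, adjusted p = 0.00683 with limma-trend), whereas *Spry2* was not (-0.52, adjusted p = 0.0659).

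Relatives of these genes had values on the other side of 0. *Spry1* was at 4.30, 1.82 and 2.03 CPM in the controls and at 6.04, 5.58, 11.1 and 4.19 CPM in the libraries labelled Sox9, of which replicate 4 lay just below control replicate 1 (log2 fold change 1.32, standard error 0.41, adjusted p = 0.0247 with edgeR). *Spry4* was at 1.24, 0.869 and 1.83 CPM and at 7.14, 2.36, 4.58 and 0.839 CPM, the last below every control (log2 fold change 1.53, standard error 0.57, adjusted p = 0.0516 with edgeR). *Etv4* was at 0.382, 0.521 and 0.102 CPM and at 0.824, 1.61, 2.01 and 2.31 CPM, with no overlap (log2 fold change 2.24, standard error 0.60, adjusted p = 0.0127 with edgeR). *Spry1*, *Spry4* and *Etv4*, whose levels per kb in the controls were below those of *Spry2* and *Etv5*, had values above 0 that missed the threshold. With cyclic loess normalization these values were 0.82 for *Spry1* (adjusted p = 0.181), 0.19 for *Spry4* (adjusted p = 0.862) and 0.35 for *Etv4* (adjusted p = 0.702, all with limma-trend). Without a filter on low counts *Spry1* (adjusted p = 0.00572) and *Etv4* (adjusted p = 0.00992) were called higher by edgeR, the latter also without replicate 1 labelled Sox9 (adjusted p = 0.00959). The limit given for the fit without a filter under *Fgfr3* holds here too.

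*Etv1*, the remaining Ets factor gene of the list, lay below 0. Its controls were at 3.35, 7.56 and 10.6 CPM and the libraries labelled Sox9 at 3.85, 1.32, 2.24 and 1.05 CPM, where replicate 1 exceeded control replicate 1 (log2 fold change -1.74, standard error 0.46, adjusted p = 0.0114 with edgeR). It passed the threshold with cyclic loess normalization (log2 fold change -2.27, adjusted p = 0.006 with limma-trend) and without control replicate 1 (-2.10, adjusted p = 0.00391 with edgeR). *Dusp6*, the ERK phosphatase gene, varied as much within groups as between them. It was at 58.9, 15.4 and 26.6 CPM in the controls and at 43.4, 15.2, 32.9 and 29.4 CPM in the libraries labelled Sox9 (log2 fold change -0.16, standard error 0.37, adjusted p = 0.775 with edgeR). *Dusp4* (log2 fold change 0.16), *Spred1* (-0.28) and *Spred2* (-0.01) were not called and overlapped between the groups.

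Radial glia and intermediate progenitors express FGF receptors and their targets. Of 11 radial glia markers 6 were called lower in the same libraries (beside 3.43% of all genes), and 11 lay below 0 at an unadjusted p under 0.05 (beside 17.3%). Their median log2 fold change was -1.19. The part of these markers in the falls of *Fgfr1*, *Spry2* and *Etv5* was not tested. *Fgfr1* and *Spry2* lie among genes of high level, of which 6.99% were called lower. *Etv5*, at an average log2 CPM of 2.99, lies at the upper edge of the range from 1 to 3. In that range 1.02% of all genes were called lower, and in the next, from 3 to 5, 4.27%.

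Of 4 PDGF genes tested none was called by edgeR (beside 11.3% of all genes higher and 3.43% lower). At an unadjusted p under 0.05, 1 of them lay above 0 (beside 26.8%), and DESeq2 called 1 higher (beside 8.49%). *Pdgfd*, a ligand of PDGFRB, came closest, with 0.287, 0.782 and 0 CPM in the controls and 2.61, 1.51, 2.35 and 2.10 CPM in the libraries labelled Sox9 (log2 fold change 2.48, standard error 0.67, adjusted p = 0.0126). The groups did not overlap for *Pdgfd*, and the level was very low. Its log2 fold change was 0.90 with cyclic loess normalization (adjusted p = 0.283 with limma-trend) and 3.74 without control replicate 2 (adjusted p = 0.00707 with edgeR). *Pdgfa*, the main ligand of PDGFRA, had nearly the same range in both groups (4.88 to 11.3 and 6.08 to 10.2 CPM; log2 fold change -0.01, standard error 0.30). *Pdgfc* was lower in every library labelled Sox9 (3.24 to 4.19 CPM) than in every control (4.37 to 7.07 CPM; log2 fold change -0.52, standard error 0.31, adjusted p = 0.219). *Pdgfrb*, the receptor gene of mural cells, was at 0.478, 2.61 and 2.44 CPM in the controls and at 1.10, 0.284, 2.01 and 0 CPM in the libraries labelled Sox9 (log2 fold change -1.03, standard error 0.74), although the summed mural and meningeal markers were higher in the latter. *Pdgfb* had 1, 0 and 1 counts and 2, 3, 3 and 3 counts and was not tested.

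The receptor gene *Pdgfra*, which is not on the list of 50 genes and marks oligodendrocyte precursors, also rose. It had 3, 1 and 2 counts in the controls and 74, 52, 28 and 34 counts in the libraries labelled Sox9, a ratio of 31.6 relative to library size (95% interval 14.2 to 87.1, exact, counting error only; adjusted p = 0.000138 with edgeR). *Pdgfra* and *Kit* are neighbours on chromosome 5 of mm10, at 75152292 to 75198215 and 75574916 to 75656722 on the forward strand, with 376.7 kb and 0 protein-coding genes between them. *Kit* was not called. It was at 137, 95.8 and 83.2 CPM in the controls and at 93.0, 61.2, 38.6 and 30.0 CPM in the libraries labelled Sox9 (log2 fold change -0.91, standard error 0.29, adjusted p = 0.0252 with edgeR). *Kit* was called lower without a filter (adjusted p = 8.92e-09) and without replicate 1 labelled Sox9 (-1.24, adjusted p = 0.00304, both with edgeR). With 143 to 1434 counts *Kit* is not a gene of low counts. As given for *Spry2* and *Fgfr3*, the fit without a filter gave smaller adjusted p-values for abundant genes at similar folds.

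In the IGF family a ligand rose and a binding protein fell. *Igf1*, which encodes insulin-like growth factor 1 (ENSMUSG00000020053, chromosome 10, 87858265 to 87937042, forward strand), was at 3.06, 4.52 and 1.73 CPM in the controls and at 9.20, 6.80, 13.53 and 9.65 CPM in the libraries labelled Sox9. All 4 of the latter lay above the highest control, and the means were 3.10 ± 1.395 (SD, n = 3) and 9.80 ± 2.78 CPM (SD, n = 4; log2 fold change 1.64, standard error 0.35, adjusted p = 0.00416 with edgeR). Microglia also make *Igf1* in the embryonic brain, and their markers summed to 12.1 to 43.0 CPM in the controls and to 18.9 to 79.5 CPM in the libraries labelled Sox9, ranges that overlapped. *Igf2*, the other ligand gene, is not on the list and had 4, 6 and 3 counts in the controls and 6, 3, 3 and 5 counts in the libraries labelled Sox9, too few for the test.

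*Igfbp5*, which encodes a secreted IGF-binding protein, fell (ENSMUSG00000026185, chromosome 1, 72857932 to 72874884, reverse strand). The controls were at 5.74, 16.9 and 13.8 CPM and the libraries labelled Sox9 at 3.57, 5.48, 1.90 and 3.56 CPM. Control replicate 1 lay close to the highest library labelled Sox9, replicate 2, without overlap (log2 fold change -1.73, standard error 0.39, adjusted p = 0.00497 with edgeR). *Igfbp2*, also without overlap, was at 11.9 to 17.6 CPM and 9.17 to 11.3 CPM (log2 fold change -0.51, standard error 0.22, adjusted p = 0.0808). *Igfbp3* (log2 fold change -0.00, standard error 0.59) and *Igfbp4* (-0.31, standard error 0.36) were not called.

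The IGF receptors were not called. *Igf1r*, the receptor gene through which IGF1 acts, was at 14.5, 10.8 and 17.1 CPM in the controls and at 13.7, 15.8, 18.4 and 14.3 CPM in the libraries labelled Sox9 (log2 fold change 0.15, standard error 0.22, adjusted p = 0.639 with edgeR). The ranges of *Igf1r* overlapped in part. *Insr*, the insulin receptor gene, was at 13.2 to 20.04 CPM and 19.5 to 25.4 CPM (log2 fold change 0.43, standard error 0.20, adjusted p = 0.103). *Igf2r*, which clears IGF2 and shares its locus with the antisense transcript *Airn*, was at 41.8 to 44.4 CPM and 32.3 to 48.8 CPM (log2 fold change -0.08, standard error 0.16).

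Of the remaining receptors, *Met*, which encodes the receptor of hepatocyte growth factor, rose (ENSMUSG00000009376, chromosome 6, 17463800 to 17573980, forward strand). It was at 2.68, 3.91 and 4.58 CPM in the controls and at 8.52, 7.84, 10.3 and 7.55 CPM in the libraries labelled Sox9. The groups were well apart (3.72 ± 0.965 CPM, SD, n = 3, and 8.55 ± 1.23 CPM, SD, n = 4; log2 fold change 1.20, standard error 0.29, adjusted p = 0.00745 with edgeR). *Kitl* was at 32.2 to 47.3 CPM and 38.9 to 61.7 CPM (log2 fold change 0.35, standard error 0.18, adjusted p = 0.158). The neurotrophin receptor genes *Ntrk2* (0.26, standard error 0.20) and *Ntrk3* (-0.01, standard error 0.14), which bind BDNF and NT-3, were not called.

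Levels of different genes were compared as mean CPM per kb of exonic sequence. In the controls *Spry2* had the highest level of the 50 genes, at 41.4 ± 9.12 CPM per kb (SD, n = 3), followed by *Fgfr1* at 17.5 ± 1.97, *Kit* at 11.8 ± 3.16, *Dusp6* at 10.7 ± 7.21 and *Fgf13* at 10.3 ± 1.38. *Spry2* stood above *Fgfr1* by more than both spreads, whereas *Kit* and *Dusp6*, and *Dusp6* and *Fgf13*, differed by less than the spread of either gene. *Tgfa* was the 29th in this order in the controls, at 0.561 ± 0.389 CPM per kb, and was at 5.32 ± 2.37 CPM per kb in the libraries labelled Sox9. The lowest levels in the controls were those of *Pdgfb* (0.0158), *Fgf1* (0.0173), *Fgf2* (0.0509), *Erbb4* (0.0623) and *Fgfr4* (0.0704 CPM per kb). If reads in introns were counted, which is not given in the sources used here, levels of long genes such as *Erbb4* are too high on this scale.

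**Figure D4:**
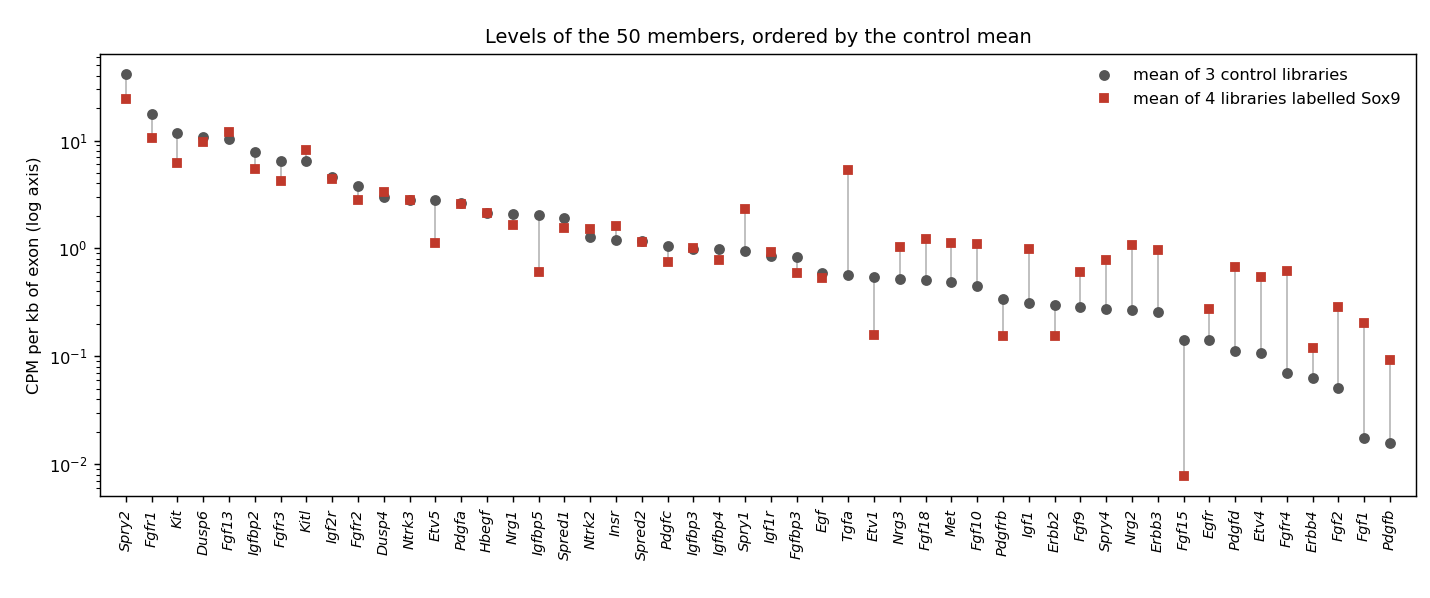
Mean CPM per kb of exonic sequence (log axis) of the 50 genes, averaged over the 3 controls and over the 4 libraries labelled Sox9, in order of the control level. *Spry2* leads in both groups (41.4 and 24.5 CPM per kb), and *Tgfa* moved from 0.561 to 5.32 CPM per kb.

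Fewer genes were called with cyclic loess normalization and limma-trend, an alternative that changes both the scaling and the test. In it the libraries are brought level at every abundance, and 1 gene of the list was called higher (*Tgfa*, log2 fold change 3.29, adjusted p = 0.00115 with limma-trend) and 2 lower (*Etv5* and *Etv1*), beside 2.17% and 1.72% of all genes. With the scaling alone changed, to DESeq2's size factors in edgeR, the counts were 6 higher and 5 lower, beside 1817 and 951 of all 16522 genes tested. DESeq2 called 7 genes of the list higher and 5 lower, beside 8.49% and 5.44% of all genes. It did not call *Fgf2* (adjusted p = 0.0102) and called *Pdgfd*, *Fgfr4* and *Etv1* in addition. Among all genes, 76.7% of the calls were higher in the TMM-scaled edgeR test, 65.6% with DESeq2's size factors in edgeR and 55.8% with cyclic loess. Neither alternative scaling moved the median log2 fold change of all genes past -0.09. The median of the FGF ligand group was 1.16 with TMM and 0.22 with cyclic loess, and that of the EGF family receptors 0.94 and -0.24. For *Met*, *Igf1* and *Erbb3* the values with cyclic loess were 0.92 (adjusted p = 0.0422), 1.38 (adjusted p = 0.0204) and 1.28 (adjusted p = 0.0508), and for *Nrg2* 0.84 (adjusted p = 0.166, all with limma-trend). *Igfbp5* was at -1.91 (adjusted p = 0.0113). No called gene changed its direction under this or any other setting.

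**Figure D5:**
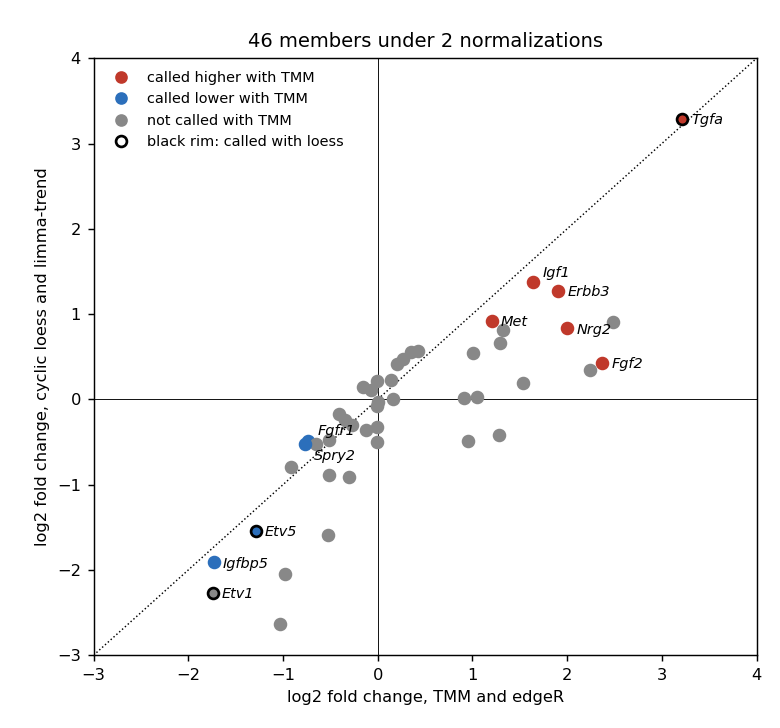
Log2 fold change of the 46 tested genes with TMM scaling in edgeR (x axis) and with cyclic loess normalization in limma-trend (y axis), with the genes called by either named and the line of equal values. *Tgfa* (3.22 and 3.29) and *Etv5* (-1.29 and -1.54) stay near the line, while *Fgf2* moved from 2.37 to 0.43.

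Leaving out single libraries also ended calls. *Tgfa* and *Fgfr1* were called in all 7 fits with a library left out. *Igf1* was called in 4 and not without control replicate 1, control replicate 4 or replicate 3 labelled Sox9 (adjusted p from 0.012 to 0.0164 with edgeR). *Spry2*, *Etv5*, *Nrg2* and *Igfbp5* were called in 2 of 7 fits and *Erbb3* and *Met* in 1 of 7, with adjusted p-values from 0.0102 to 0.0341 where the call was lost. *Spry2* and *Igfbp5* had their smallest effects without control replicate 2 (-0.60 and -1.42), *Etv5* without replicate 4 labelled Sox9 (-1.12), *Nrg2* and *Erbb3* without control replicate 2 (1.68 and 1.51), and *Met* without control replicate 1 (1.00). *Fgf2* passed the filter in 4 of these fits and was called in 1, the fit without replicate 2 labelled Sox9.

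Other genes of the same pathways were counted from a longer list of 137 genes outside the 50, of which 135 were in the count table and 99 were tested. Of these, 13 were called higher (13 of 99, beside 11.3% of all genes) and 4 lower (beside 3.43%), with a median log2 fold change of 0.09. Receptors and co-receptors held 7 of the 13 rises, with 7 of 22 called higher and 0 lower by edgeR. At an unadjusted p under 0.05 the counts were 13 and 0 (beside 26.8% and 17.3% of all genes), by DESeq2 10 and 0 (beside 8.49% and 5.44%), and with cyclic loess and limma-trend 2 and 0 (beside 2.17% and 1.72%). Whether rises were more frequent among receptors was not tested. Besides *Pdgfra*, these included the VEGF receptor genes *Flt1* (log2 fold change 2.53, standard error 0.45, adjusted p = 0.00145) and *Kdr* (2.11, standard error 0.40, adjusted p = 0.0022) and the TAM receptor gene *Mertk* (1.73, standard error 0.32, adjusted p = 0.00182). *Flt1* and *Kdr* are themselves endothelial markers, whose summed level was 6.88 to 17.5 CPM in the controls and 25.4 to 56.6 CPM in the libraries labelled Sox9. That sum includes both genes, at means of 8.855 and 5.18 CPM in the libraries labelled Sox9, and they are the 2 endothelial markers called higher. The sum is therefore not separate from their rise. *Bdnf*, the ligand gene of the receptor encoded by *Ntrk2*, rose as well (2.46, standard error 0.47, adjusted p = 0.00208), with 5 to 15 counts in the controls and 20 to 64 counts in the libraries labelled Sox9.

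The falls outside the list of 50 genes included both members of the pleiotrophin family. *Ptn* (pleiotrophin) fell from 480 ± 83.1 CPM (SD, n = 3) to 217 ± 71.5 CPM (SD, n = 4; log2 fold change -1.14, standard error 0.20, adjusted p = 0.00116 with edgeR). *Mdk* (midkine) fell from 214 ± 40.1 to 96.7 ± 17.3 CPM (-1.15, standard error 0.16, adjusted p = 0.000291). Both are heparin-binding growth factors made by radial glia. *Fgf11*, like *Fgf13* an intracellular FGF, fell by 1.05 on the log2 scale (standard error 0.22, adjusted p = 0.00319), and *Nras*, a RAS gene upstream of ERK, by 0.50 (standard error 0.11, adjusted p = 0.00428). No library overlapped between the groups for these 4 genes. Of 28 genes of the ERK cascade and its adaptors only *Nras* was called lower and 1 gene higher by edgeR (beside 3.43% and 11.3% of all genes). At an unadjusted p under 0.05, 6 lay below 0 and 5 above (beside 17.3% and 26.8%), and DESeq2 called 4 lower and 1 higher (beside 5.44% and 8.49%). Of 27 further feedback and target genes 2 were called higher and 0 lower (4 and 2 at an unadjusted p under 0.05, beside 26.8% and 17.3% of all genes tested, and 2 and 1 by DESeq2), with median log2 fold changes of 0.00 in both groups of genes.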

How the data were processed

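RNA was sequenced by the authors from High RFP cells in 3 control libraries and 4 libraries labelled Sox9. Per the labels' processing notes, bcl2fastq 2.17.1.14 and STAR 2.5.2b were used, and reads were aligned to mm10. The authors deposited raw counts per gene and FPKM values. The FPKM values were used only to check the length behind them, which was within 2% of the gene span for 91.8% of 6894 genes. The counting program, and whether strand or introns were used, are not given in the sources used here. The libraries are called biological replicates in the labels.

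Counts were tested with edgeR 4.0.16 (R 4.3.3) by the two-sided quasi-likelihood test after TMM scaling and the default filterByExpr filter, with Benjamini-Hochberg adjustment over 16522 genes and a threshold of 0.01. CPM use TMM-scaled library sizes. The standard error is the log2 fold change divided by the square root of F. Intervals of count ratios are exact conditional binomial intervals. Alternatives used DESeq2 1.42.0, its size factors, cyclic loess with limma 3.58.1, other filters, protein-coding genes, replicate blocks, a threshold of 0.05 and each library left out. Values were summarised in Python 3.11.15 with pandas 2.3.3. Gene locations follow the GENCODE M21 annotation.

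All 50 genes are named. Values per library are given for called genes and for preset receptors and feedback genes, and some others were added for their values. Among the other pathway genes, *Pdgfra*, *Igf2* and the 5 rises and up to 5 falls with the smallest p-values are named. The genes and lists were chosen with earlier results of these data known.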

Additional observations from a re-analysis of the deposited data

Results flagged for a closer look

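In the 4 libraries labelled Sox9, the highest or lowest library was tested by Dixon's criterion for each of the 50 genes at the 95% level, and chance alone flags about 1 in 20 groups. It was passed for 3 genes. *Etv5* was at 7.71 CPM in replicate 3 labelled Sox9, against 3.35 to 3.98 CPM in the other 3 libraries of that group, a gap of 0.856 of the range. *Spred1* was at 6.92 CPM in replicate 4, below the other 3 libraries (gap of 0.855 of the range). *Fgf15* was at 0.0945 CPM in replicate 2, which is 1 count, while the other 3 had none. The control group, with 3 libraries, was not tested.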

How the results depend on the processing

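Of 665 values computed under alternatives, 533 kept their direction and side of the threshold, 64 lost their call, 17 gained one and 51 reversed direction, the last in 14 genes none of which was among the 10 called genes. Of the 50 genes, 6 were called higher and 4 lower as reported. Numbers called higher and lower were 7 and 5 with DESeq2, 6 and 5 with its size factors in edgeR, 1 and 2 with cyclic loess, 11 and 7 without a filter, 3 and 1 with at least 10 counts in every library, 10 and 6 at a threshold of 0.05, and 1 to 4 and 1 to 5 with a library left out. Of the other pathway genes, 13 were called higher and 4 lower as reported. The numbers were 16 and 8 with DESeq2, 14 and 6 with its size factors, 2 and 3 with cyclic loess, 20 and 11 without a filter, 4 and 2 with at least 10 counts, 25 and 9 at 0.05, and 8 to 11 and 2 to 5 with a library left out. Numbers for all genes are given above for DESeq2, its size factors and cyclic loess only. Counts under the other settings, the replicate blocks among them, stand without that comparison. The fold of a gene that lost its call was not always smaller (*Erbb3* was at 2.07 with the block by title numbers, against 1.91). With at least 10 counts, *Fgf2*, *Nrg2* and *Erbb3* were no longer tested, while *Spry2*, *Etv5* and *Igfbp5* were tested and not called (adjusted p = 0.0207, 0.0266 and 0.0129 with edgeR). The other causes were not tested.

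Whether replicate numbers pair the libraries is not known, and the main test used no pairs. Deviations from the group mean correlated at -0.0356, 0.118 and -0.0048 for the same title numbers, too few values to show or exclude pairing. The descriptions number control replicate 4 differently. With the replicate block by title numbers 1 gene of the list was called higher and 2 lower (other pathway genes 3 and 3), and with the block by description numbers 1 and 4 (other pathway genes 9 and 4). The latter fit called *Fgfr3* (-1.01, adjusted p = 0.00858 with edgeR) and *Kit* (-0.77, adjusted p = 0.00658) lower, which were not called as reported.

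Reversed values were -0.42 for *Fgf18*, 0.14 for *Dusp6*, -0.49 for *Erbb4*, 0.11 for *Igf2r* and 0.22 for *Ntrk3* with cyclic loess. With at least 10 counts they were 0.13 for *Spred2*, *Igfbp3* and *Ntrk3*, 0.14 for *Hbegf* and *Pdgfa*, 0.015 for *Egf* and 0.062 for *Igf2r*. With protein-coding genes only they were 0.026 for *Spred2*, 0.037 for *Hbegf*, 0.033 for *Pdgfa*, 0.038 for *Igfbp3* and 0.031 for *Ntrk3*. With the block by title numbers they were -0.036 for *Dusp4*, 0.21 for *Igfbp3* and 0.003 for *Ntrk3*, and with that by description numbers 0.113 for *Hbegf*, 0.153 for *Pdgfa*, 0.008 for *Igf2r*, 0.121 for *Igfbp3* and 0.062 for *Ntrk3*. With a library left out, values ran from -0.62 to 0.032 for *Fgfr2*, -0.89 to 0.042 for *Fgfbp3*, -0.17 to 0.17 for *Spred2*, -0.50 to 0.50 for *Dusp6*, -0.089 to 0.207 for *Hbegf*, -0.37 to 0.13 for *Egf*, -0.25 to 0.31 for *Pdgfa*, -0.015 to 0.324 for *Igf1r*, -0.16 to 0.072 for *Igf2r*, -0.45 to 1.13 for *Igfbp3* and -0.083 to 0.121 for *Ntrk3*.

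*Fgf2*, *Fgf1*, *Fgfr4* and *Pdgfb* rest on at most 4 counts in each control, so that their control levels are imprecise.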
